A study of Mus musculus with 2 samples.

Results

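Genes for MHC class II presentation of antigen were read on 2 mouse expression arrays, 1 of thioglycollate-elicited and 1 of resident peritoneal macrophages. They are H2-Aa, H2-Ab1, H2-Eb1, Cd74, H2-DMa, H2-DMb2, H2-Oa, H2-Ob and Ciita, 9 of 18193 named genes. Their values come from all 19 probe sets that the platform annotation assigns to exactly 1 of these genes. A further 3 probe sets name H2-DMb2 or H2-Ob together with another gene and are described apart. The elicited array held RNA from macrophages taken 3 days after 1 mL of 3% thioglycollate was put into the peritoneal cavity. Thioglycollate broth is a sterile irritant that draws leukocytes into the cavity. The resident array held RNA of macrophages from mice described for the series as not treated, although the injection protocol is attached to both samples. The large resident macrophage markers given further on had a summed signal of 124239 on that array and 6403 on the elicited array. Their list was chosen with earlier results of these data known, and whether the resident mice were untreated was not tested. Both groups were C57BL/6J mice of 8 weeks, and the cells were left to adhere before loose cells were washed away (2 h in the labels' protocol, overnight in the series' own description). With 1 array per group no difference could be tested against variation between animals or cultures. The sources used here do not state whether an array held 1 animal or a pool.

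MHC class II molecules are pairs of an alpha and a beta chain that show peptides from engulfed material to CD4+ T cells. The invariant chain, encoded by Cd74, guides new pairs to endosomes and blocks their groove. The DM heterodimer then swaps its last fragment for peptide, and the DO heterodimer, best known from B cells, holds DM in check. Ciita is the coactivator that drives transcription of class II genes, through protein complexes that sit on a short stretch of promoter with an X box and a Y box. B cells and dendritic cells carry class II constantly, while macrophages carry it in amounts that differ between subsets. In mice of the b haplotype, such as C57BL/6J, H2-Ea is not transcribed, so H2-Eb1 has no partner at the cell surface.

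Promoter sequences are shown for 5 class II presentation genes and for H2-DMb1, the close copy of H2-DMb2. They share the Y box core. Within the letters shown, the X box stretch is marked in H2-Eb1, H2-DMb2 and H2-DMb1 alone. RefSeq promoter windows of build GRCm38.p6, each running from 250 bases before the transcript start to 50 after it, were at hand for 6 of the 9 genes. H2-Ab1, Cd74 and Ciita had none. Letters 130 to 21 before the start are shown here, on the strand of the gene. They were chosen because they hold the Y box core in each gene shown, so that its sharing follows from the choice. H2-DMa was left out, as neither of its windows holds the core there. Capitals mark, on that strand, GATTGG, the Y box core (an inverted CCAAT), and ACNGATG, a stretch of the X box. H2-Oa holds ACNGATG on its own strand as well, from 137 bases before the start, so it falls outside the letters shown.
H2-Aa (chr17:34287844-34287953, minus strand): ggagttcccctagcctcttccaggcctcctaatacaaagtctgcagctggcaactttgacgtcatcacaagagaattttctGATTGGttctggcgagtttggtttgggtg
H2-Eb1 (chr17:34305737-34305846, plus strand): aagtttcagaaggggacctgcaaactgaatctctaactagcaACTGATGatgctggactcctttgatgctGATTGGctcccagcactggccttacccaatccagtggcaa
H2-DMb2 (chr17:34145119-34145228, plus strand): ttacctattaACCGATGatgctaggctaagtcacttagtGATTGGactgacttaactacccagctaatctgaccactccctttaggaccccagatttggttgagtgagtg
H2-DMb1 (chr17:34153061-34153170, plus strand): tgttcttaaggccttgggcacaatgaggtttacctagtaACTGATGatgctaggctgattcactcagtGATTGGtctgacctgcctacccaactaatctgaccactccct
H2-Oa (chr17:34092249-34092358, plus strand): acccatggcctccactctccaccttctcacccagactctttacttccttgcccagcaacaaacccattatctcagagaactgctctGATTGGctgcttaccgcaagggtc
H2-Ob (chr17:34238775-34238884, plus strand): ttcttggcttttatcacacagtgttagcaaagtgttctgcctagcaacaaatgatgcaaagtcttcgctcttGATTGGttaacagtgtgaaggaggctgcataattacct

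GATTGG lay on the gene's own strand in the windows of all 6 class II presentation genes that had one, against 8.71% of 32851 mouse promoter windows (16.1% on either strand). It began 49 bases before the start in H2-Aa, 60 in H2-Eb1, 91 in H2-DMb2, 44 in H2-Oa and 58 in H2-Ob. H2-DMa had 2 windows: 1 held the core 199 bases before its start and the other held none. ACNGATG was found on either strand in 4 of the 6 genes and in 9.85% of all windows. These genes were H2-Eb1, H2-DMb2, H2-Oa (137 bases before the start) and H2-Aa (on the opposite strand, 232 bases before it). An X box spelled otherwise would be missed by these letters. The ordered pair, ACNGATG followed by GATTGG after 10 to 40 letters, was present in H2-DMb2 (22 letters between) and H2-Eb1 (21 letters), and in 19 windows of the whole set (0.0578%). H2-DMb1 and H2-Eb2, a further class II beta chain gene, held it too, with 22 and 21 letters between. These are matches of letters, and no binding was measured.

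Signals of all 9 genes were lower on the elicited array, in each of their 19 probe sets. As deposited, the values are linear intensities from the MAS5 algorithm. They were compared as log2 ratios of elicited over resident signal, after raising lower signals to a floor of 82.2, the 95th percentile of odorant, vomeronasal and taste receptor and keratin-associated genes that macrophages are not thought to express. Where 1 array did not exceed the floor, the ratio is therefore a bound. This holds for every probe set of H2-Oa, H2-Ob and Ciita and for the dimmer of H2-DMa. Each gene is given by its brightest probe set. By that measure 8 of 9 were lower on the elicited array by 2-fold or more and 0 of 9 were higher by that much. Over all 11499 genes above the floor on either array, 11.8% were lower and 8.04% higher by 2-fold or more. At a 3-fold threshold 5 of 9 were lower, against 4.71% of all genes. The median log2 ratio was -1.72 for the 9 genes and -0.03 for all genes, so a ratio below 0 was common among all genes. H2-Oa, H2-Ob and Ciita, which exceeded the floor on the resident array alone, could not have come out higher. Where genes had to be above the floor on both arrays, 5 of 6 were at least 2-fold lower, against 11.1% of all genes. The median log2 ratio of those 6 was -1.33. By probe set, 15 of 19 were at least 2-fold lower, against 15.2% of the 21118 named probe sets above the floor. In RNA from a whole dish, fewer class II-bearing cells and less class II RNA per cell cannot be told apart.

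**Figure D1:**
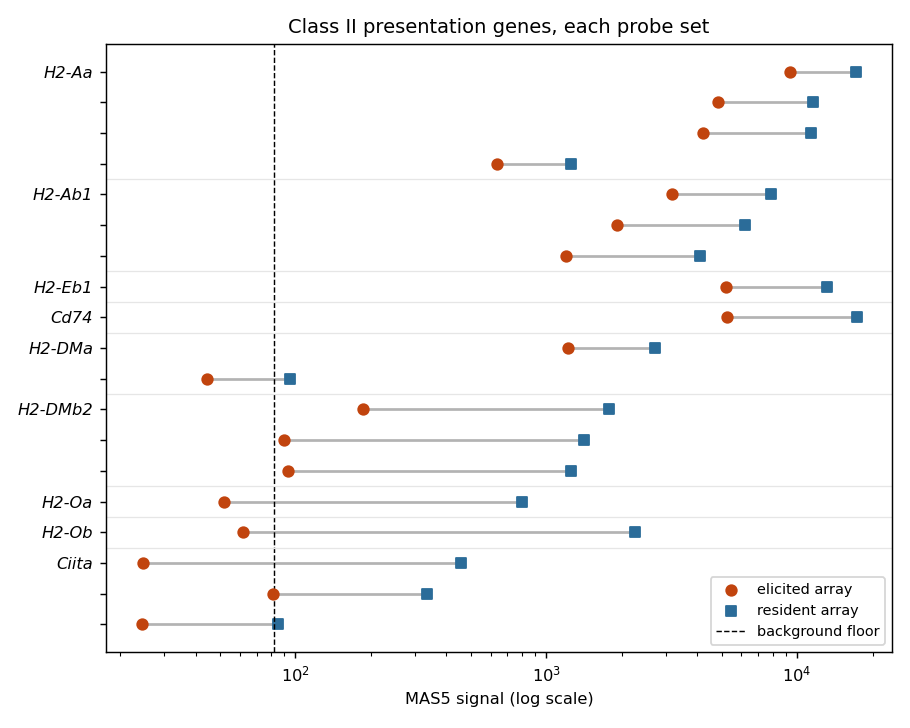
MAS5 signal (log axis) of each of the 19 probe sets, grouped by gene, on the elicited array (circles) and the resident array (squares), with the background floor of 82.2 as a dashed line. Every circle lies left of its square, and the circles of H2-Oa, H2-Ob and Ciita lie at or left of the floor.

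The classical chains stayed bright on the elicited array. H2-Aa, the alpha chain of I-A, had signals of 9404 on the elicited and 17208 on the resident array in its brightest probe set, 1.83-fold lower. Its other 3 probe sets read 4831 and 11580, 4208 and 11345, and 634 and 1254, elicited before resident. All 4 were lower on the elicited array, by 1.83-fold to 2.70-fold, and 2 of the 4 passed 2-fold. H2-Aa was thus the gene under the threshold by its brightest probe set, and which genes are counted depends on the probe set that stands for them. With the median of a gene's probe sets, H2-Aa passed 2-fold (log2 ratio -1.12) and H2-DMa did not (-0.68), and the count was again 8.

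H2-Ab1, the beta chain of I-A, was lower in all 3 of its probe sets. The brightest read 3167 on the elicited and 7891 on the resident array (2.49-fold lower), and the others were 3.26-fold and 3.42-fold lower. H2-Eb1, the beta chain of I-E, had 1 probe set, with a signal of 5221 on the elicited and 13191 on the resident array (2.53-fold lower). The 8 probe sets of these 3 genes spanned log2 ratios from -1.77 to -0.87, so alpha and beta chains lay close together. Cd74 lay in the same range with 5261 on the elicited and 17283 on the resident array, a log2 ratio of -1.72.

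These 4 genes lie in the brightest decile of all genes, where the median log2 ratio was 0.40, above that of all genes. Among genes of that decile, 1.57% had a ratio as low as that of Cd74 or lower. The share was 2.87% for H2-Eb1, 2.96% for H2-Ab1 and 5.13% for H2-Aa. Over all genes the same shares were 4.02%, 6.83%, 7.02% and 14.5%. Each of these 4 lay nearer the low end among genes of like signal than among all genes, as H2-DMa did slightly (8.70% and 9.34%), and the reverse held for the dimmer H2-DMb2, H2-Oa, H2-Ob and Ciita.

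Of the DM genes, H2-DMb2 had the lowest ratios, in the probe sets that name it alone. H2-DMa had signals of 1226 on the elicited and 2706 on the resident array, 2.21-fold lower. Its second probe set was dim, with 44.4 and 95.1, the first of these under the floor. H2-DMb2, one of 2 mouse genes for the DM beta chain, had signals of 185 on the elicited and 1781 on the resident array, 9.60-fold lower. Its other 2 probe sets read 93.7 against 1252 and 90.0 against 1414, elicited before resident, so that they were 13.4-fold and 15.7-fold lower. All 3 probe sets of H2-DMb2 thus had lower ratios than either probe set of H2-DMa, although the elicited signals of the dimmer pair lay just over the floor.

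Probe sets that read H2-DMb1 and H2-DMb2 together showed smaller ratios. One had signals of 527 on the elicited and 826 on the resident array (1.57-fold lower), and the other 1084 and 2380 (2.20-fold lower). The log2 ratios of these 2 were -0.65 and -1.13, against -3.97 to -3.26 for the 3 probe sets that name H2-DMb2 alone. No probe set names H2-DMb1 alone, so its own ratio was not measured here. The gap between both sets of probes was larger than the SD of 0.48 on the log2 scale that was found between probe sets of the same gene over 4465 genes. That SD covers differences between probes within these arrays and not between animals.

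The DO chains were bright on the resident array and not distinguished from background on the elicited array. H2-Ob, the DO beta chain, had a signal of 61.5 on the elicited and 2264 on the resident array, at least 27.6-fold lower. A probe set shared with Gm20506 read 35.5 and 633, also under the floor on the elicited array. H2-Oa, the DO alpha chain, read 51.7 on the elicited and 800.1 on the resident array, at least 9.74-fold lower. Of all genes, 0.209% had a ratio as low as H2-Ob or lower, 0.704% as low as H2-Oa and 0.73% as low as H2-DMb2. Among genes of like signal the shares were larger, at 0.522% for H2-Ob, 2.43% for H2-Oa and 1.22% for H2-DMb2.

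Ciita was not above the floor on the elicited array in any of its 3 probe sets. The one with the highest mean read 81.4 on the elicited and 335 on the resident array, at least 4.07-fold lower. The second read 24.7 and 455, at least 5.54-fold lower. The third read 24.3 and 84.9, both so near or under the floor that the ratio carries little. Of all genes 2.63% had a ratio as low as Ciita or lower, and of genes of like signal 8.52%. Ciita is dim on the resident array too, and with a floor at the 99th percentile of the silent families (174) its log2 ratio became -0.94, short of 2-fold.

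Sorted by log2 ratio, the 9 genes ran from H2-Ob (-4.78) through H2-Oa (-3.28), H2-DMb2 (-3.26), Ciita (-2.03), Cd74 (-1.72), H2-Eb1 (-1.34), H2-Ab1 (-1.32) and H2-DMa (-1.14) to H2-Aa (-0.87). Neighbours in this order were mostly closer than the probe-set SD of 0.48. The exceptions were the gap between H2-Ob and H2-Oa, both of which are bounds, and that of 1.24 between H2-DMb2 and Ciita. Ciita is a bound too, with an elicited signal of 81.4 under the floor, so its gap to H2-DMb2 could be smaller. Its second probe set gave -2.47, also a bound. From Ciita to H2-Aa no step exceeded that SD, although the step from Ciita to Cd74 could be larger for the same reason.

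**Figure D2:**
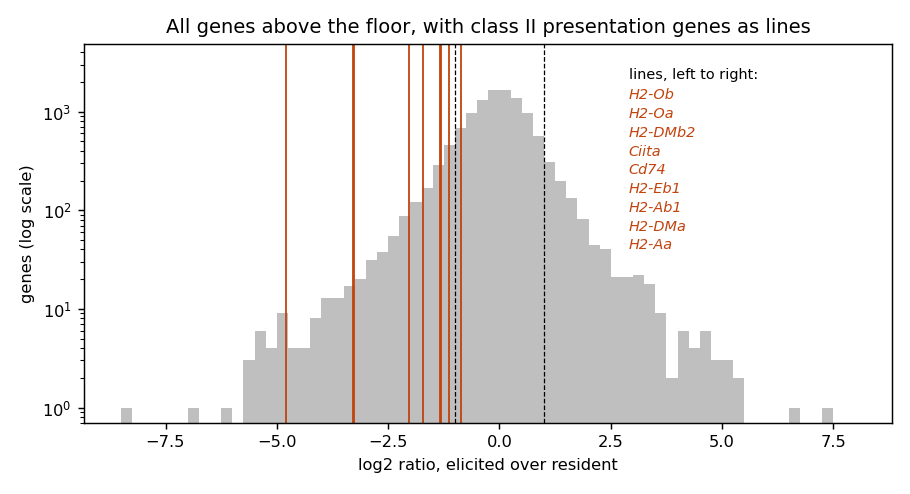
Histogram of the log2 ratio of elicited over resident signal for the 11499 genes above the floor on at least 1 array (count on a log axis), with the 9 class II presentation genes as vertical lines and 2-fold as dashed lines. The 9 lines run from -4.78 for H2-Ob to -0.87 for H2-Aa, and H2-Aa alone lies inside the 2-fold lines.

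Other class II chains were read as a check on the probes. All 3 probe sets of H2-Ea were at or below the floor on both arrays (2.25 to 54.3 on the elicited and 4.81 to 15.4 on the resident array). H2-Eb2 had a signal of 39.2 on the elicited and 446 on the resident array, at least 5.42-fold lower.

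Of 10 measured genes of other function among or beside the class II genes on chromosome 17, 0 were lower by 2-fold or more, against 11.8% of all genes, and 0 higher, against 8.04%. Most genes are within 2-fold, so this count is near the share of all genes. In the RefSeq gene order, 13 protein-coding genes start between H2-Oa and H2-Eb1, of which 7 are class II presentation genes, 1 is H2-DMb1 and 5 serve other roles. Those 5 are Brd2, a chromatin reader, the immunoproteasome subunit genes Psmb9 and Psmb8, and Tap1 and Tap2, which encode the peptide transporter for MHC class I. Their log2 ratios lay between -0.59 (Brd2) and 0.29 (Psmb8), and those of the 7 class II genes between -4.78 and -0.87. Tap2 had signals of 414 on the elicited and 498 on the resident array, and in gene order it stands next to H2-Ob. Outside this stretch, Daxx, Tapbp, H2-K1, Ring1 and Rxrb had log2 ratios between -0.60 and -0.10, and Btnl2 and Notch4 did not exceed the floor. The 10 measured neighbours were within 2-fold under each of the 5 scalings tried, and the signs of all but Brd2, Tapbp and Rxrb turned between them.

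**Figure D3:**
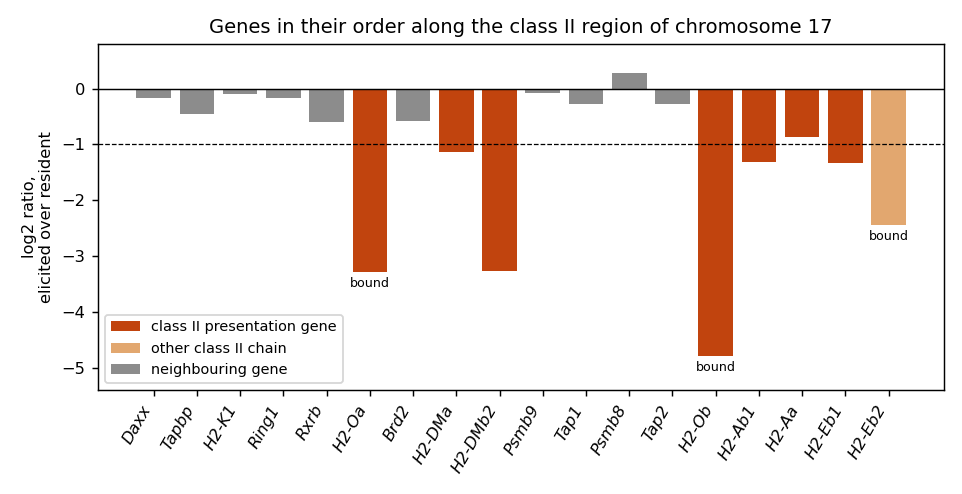
Log2 ratio of elicited over resident signal for measured genes in their order along the class II region of chromosome 17 (evenly spaced, not to genomic scale), with class II presentation genes, other class II chains and neighbouring genes in separate colours. Brd2, Psmb9, Tap1, Psmb8 and Tap2 lie between -0.59 and 0.29, among class II genes that reach -4.78; "bound" marks genes that did not exceed the floor on the elicited array.

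Among the factors that assemble on class II promoters, Rfx5 had the lowest log2 ratio. Rfx5 encodes the DNA-binding subunit of the RFX complex on the X box, and had a signal of 237 on the elicited and 1106 on the resident array, 4.67-fold lower, from 1 probe set. It was the one gene of 11 measured in this list that was at least 2-fold lower, against 11.8% of all genes. None was 2-fold higher, against 8.04%, and the list median was -0.11. The count of lower genes is thus near the share of all genes. Rfxap and Rfxank, the RFX partners of Rfx5, had log2 ratios of 0.64 and 0.11. The Y box factors Nfya, Nfyb and Nfyc lay at 0.39, 0.09 and -0.11. Signs of Rfxank, Nfyb, Nfyc and Smarca4 turned between scalings, while Rfx5 lay between -2.56 and -1.89. Creb1, which can bind within the X box, had -0.98 and the coactivator genes Crebbp, Ep300, Kat2b and Smarca4 had -0.93, -0.82, -0.78 and -0.09. When arrays were scaled on the spiked controls, Creb1, Crebbp, Ep300 and Kat2b passed 2-fold as well. Atf1 was not analysed here.

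Of 15 measured genes that act on Ciita or carry interferon gamma signals, 6 were lower by 2-fold or more, against 11.8% of all genes. Higher by that much were 0, against 8.04%, and the list median was -0.58. Irf4, a factor of B cells and dendritic cells, read 114 on the elicited and 652 on the resident array, a log2 ratio of -2.51. Socs3, a feedback inhibitor, had -1.91 and Zbtb32, a repressor known to act on Ciita in B lineage cells, at most -1.85. Irf1, which binds the interferon-responsive Ciita promoter, read 1226 on the elicited and 3134 on the resident array (2.56-fold lower). Irf2 (-1.17) and the kinase gene Jak2 (-1.01) were the others. Scaling to equal medians put both within 2-fold, and quantile and loess normalization put Jak2 there. Irf8 had -0.58 and Spi1, a master factor of the myeloid lineage, 0.06, a sign that turned between scalings.

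Genes of the machinery that cuts antigen and moves class II were mostly within 2-fold. By that threshold 1 of 20 measured genes was lower, against 11.8% of all genes, 3 were higher, against 8.04%, and 16 were neither. The list median of 0.44 was close to the 0.40 of the brightest decile, which holds most of these genes. It was 0.18, 0.08 and 0.10 under quantile, loess and spiked-control scaling, each with 1 gene higher. Scaling to equal medians gave 0.74, with 4 genes higher. Marchf1, a ubiquitin ligase that sends surface class II for destruction, read 989 on the elicited and 2477 on the resident array, 2.50-fold lower. Ctsl, a cathepsin that trims the invariant chain, read 41885 and 16679 (2.51-fold higher), and the legumain gene Lgmn 30729 and 15266 (2.01-fold higher), elicited before resident. The motor gene Myo1e was 2.60-fold higher. Ctss, the cathepsin that trims the invariant chain in antigen-presenting cells, read 51026 on the elicited and 32037 on the resident array (1.59-fold higher). Ifi30, the thiol reductase GILT, had 17898 on the elicited and 18859 on the resident array, and the sign of its ratio turned between scalings. Ctsl and Lgmn were within 2-fold under 3 of the other scalings, and Ctss kept a positive log2 ratio in all 5, from 0.17 to 0.98.

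Most B cell markers were lower together with the class II genes, and markers of other class II-bearing cells were mixed. Of 16 measured B cell markers, 12 were lower by 2-fold or more, against 11.8% of all genes, and 1 was higher, against 8.04%. The other 3 were neither, and the list median was -3.52. Cd79a and Cd79b, which encode the signalling chains of the B cell receptor, read 37.0 against 934 and 143 against 3417, elicited before resident. Ms4a1, which encodes CD20, read 139 on the elicited and 5281 on the resident array (38.0-fold lower), and Ighm and Fcmr had log2 ratios of -5.66 and -4.81. Cd79a was under the floor on the elicited array, as were Ebf1, Fcer2a, Cr2, Fcrla and Spib. The summed signal of the list was 19478 on the elicited and 37015 on the resident array. Blnk (13826 and 6161) and Cd22 (4078 and 2269), which were brighter on the elicited array under all 5 scalings, made up most of the elicited sum. Ighd was not analysed here. The part of B cells in the class II result was not tested.

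Of 8 dendritic cell markers above the floor, 5 were lower by 2-fold or more, against 11.8% of all genes. A further 2 were higher, against 8.04%, and the list median was -1.33. Btla, also carried by B cells, had at most -4.16, Cd209a at most -3.24, Ccr7 at most -2.09 and Dpp4 at most -1.54. None of the 5 lower ones exceeded the floor on the elicited array. Itgax (1.12) and Batf3 (1.17) were the higher ones. The defining factor gene Zbtb46 read 37.8 on the elicited and 145 on the resident array, and Flt3 did not exceed the floor on the elicited or the resident array. The summed signal of this list was 6666 on the elicited and 6110 on the resident array. Genes of small peritoneal macrophages and monocytes, which carry more class II than the large resident kind, were mixed. Of 8 above the floor, 4 were lower by 2-fold or more, against 11.8% of all genes, and 2 higher, against 8.04% (median -1.47). Plac8 had -4.55, Ms4a4c -2.82 and Retnla -2.57, while Folr2 had 2.96 and Clec10a 1.39. The remaining lower gene was Irf4 (-2.51), which is counted among the genes of Ciita regulation too. The summed signal of this list was 7246 on the elicited and 19607 on the resident array. Whether dendritic cells or small macrophages had a part in the class II result was not tested.

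Markers of the large resident macrophages, a type known for low class II, were lower by 2-fold or more in 9 of 10, against 11.8% of all genes. Alox15 had at most -8.30, Timd4 at most -6.89, F5 at most -5.48 and Ltbp1 -5.38. The summed signal of the 10 was 6403 on the elicited and 124239 on the resident array. As a check of the labelled cell type, all 8 pan-macrophage genes were above the floor on both arrays, with summed signals of 137236 on the elicited and 141135 on the resident array. Their median was -0.51, with 2 of 8 lower by 2-fold or more, against 11.8% of all genes, and 1 higher, against 8.04%. Itgam had -1.58, Cd14 -1.45, Mertk -0.87 and Fcgr1 1.35. Of 11 mesothelial and fibroblast markers above the floor, 8 were higher on the elicited array by 2-fold or more, against 8.04% of all genes. Lower were 0, against 11.8%, but only 4 of the 11 exceeded the floor on the resident array, and the others could not have come out lower. The highest were Sparc (5.50), Col1a2 (5.04), Col3a1 (4.79) and Dcn (at least 4.56). The summed signal of all 12 listed markers was 16446 on the elicited and 730.0 on the resident array. Their part in the class II result was not tested. T and NK cell markers were few above the floor (5 of 8), with Il7r at 4.14, Cd3d at most -1.83, Cd3g at most -1.23 and Klrd1 at most -0.91.

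**Figure D4:**
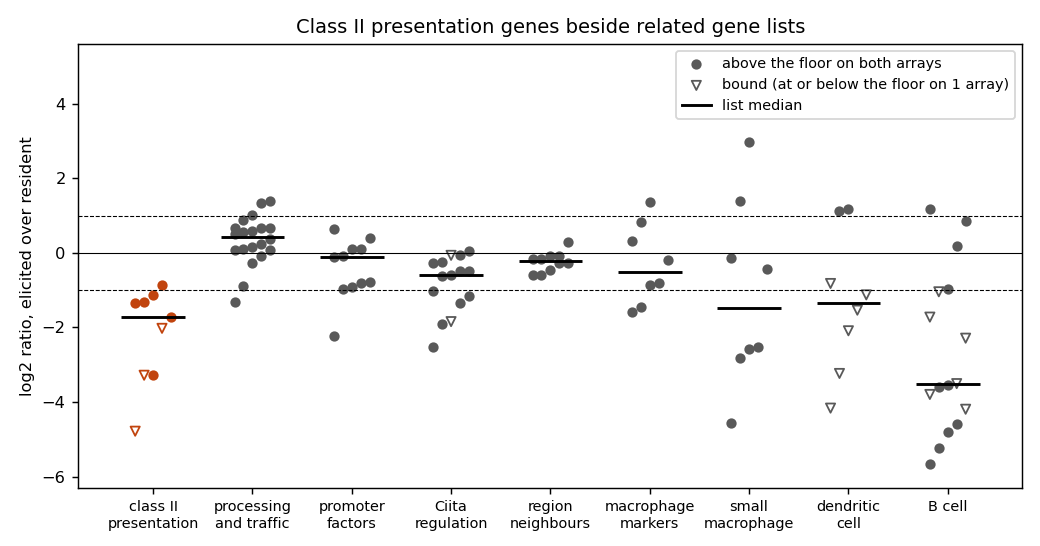
Log2 ratio of elicited over resident signal for each gene above the floor on at least 1 array, by list, with list medians as bars, bounds as open triangles and 2-fold as dashed lines. All 9 class II presentation genes lie below 0 with a median of -1.72, the processing and traffic genes centre on 0.44 and the B cell markers on -3.52.

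The direction of the 9 genes was the same under every scaling, floor and choice of probe set tried. Scaling to equal medians gave 7 of 9 lower by 2-fold or more, against 7.44% of all genes. Quantile normalization gave 9 of 9 against 8.01%, loess 9 of 9 against 9.29%, and scaling on the spiked controls 9 of 9 against 19.4%. The median log2 ratio of all genes moved between -0.34 and 0.24 with these scalings. That of the class II genes ran from -2.03 to -1.41.

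**Figure D5:**
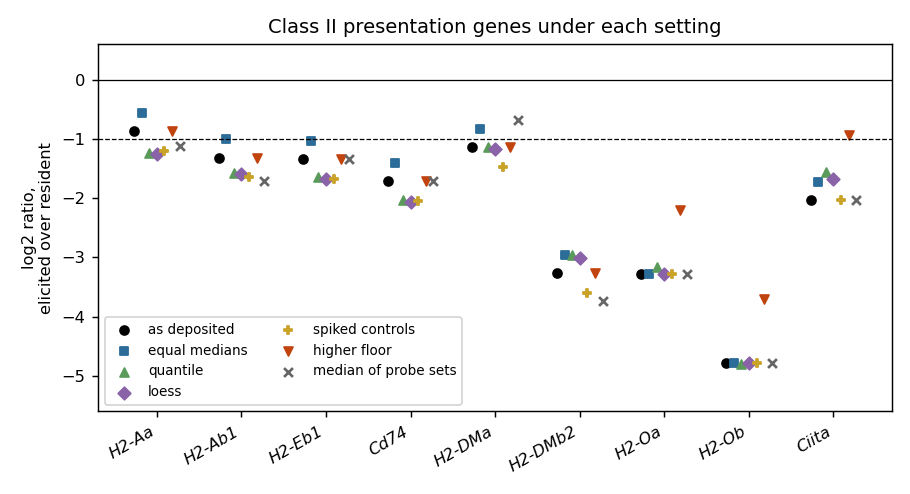
Log2 ratio of elicited over resident signal for each class II presentation gene as deposited and under 6 other settings (4 scalings, a floor of 174, and the median of a gene's probe sets), with 2-fold as a dashed line. All values lie below 0; H2-Aa, H2-DMa and Ciita cross the 2-fold line under some settings, and H2-Ob, H2-Oa and H2-DMb2 under none.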

How the data were processed

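RNA of 2 samples, elicited and resident macrophages, was hybridised to 1 Affymetrix 3' array each. The authors deposited linear signal intensities that the submitters' processing notes credit to MAS5. The sources used here do not state its version, scaling target or detection calls. The mean signal after trimming 2% of probe sets at either end was 500.0 on both arrays, and 46.1% of 45101 probe sets exceeded the floor on the elicited and 51.9% on the resident array. No further normalization was applied for the main values.

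Gene names came from the platform annotation, updated by gene ID to the RefSeq table of GRCm38.p6 (34741 of 34945 probe sets that name 1 gene matched). A floor was set on 126 probe sets of silent families (252 values). Ratios were log2 of elicited over resident signal, and each gene was represented by the probe set whose mean log2 signal was highest. No test was run, since each group had 1 array. Their number limits the precision of all values.

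The genes and the 13 lists were chosen with earlier results of these data known. The text names all class II presentation genes, the promoter factors and the region neighbours, and in other lists up to 4 genes with the largest absolute ratios, plus Ctss, Ifi30, Lgmn, Irf1, Irf8, Spi1 and defining markers of B and dendritic cells. Other genes were named after their values were seen, to account for a count. Alternatives changed scaling, floor, probe set choice, filter and threshold. Calculations were tested on simulated data and used Python 3.11.15, numpy 2.4.6, pandas 2.3.3 and statsmodels 0.14.6. A planned comparison of protein sequences was not run.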

Additional observations from a re-analysis of the deposited data

How the results depend on the processing

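The log2 ratios of the 9 class II presentation genes were below 0 in all 89 values recomputed under the alternatives, and 81 of these moved by no more than the probe-set SD of 0.48. The other 8 belong to H2-DMb2 (1), H2-Oa (3), H2-Ob (2) and Ciita (2). Part of the 89 values could not move, so the 81 overstate how stable the ratios are. A higher floor leaves bright genes as they were, and the choice of probe set leaves genes with 1 probe set. H2-Oa and H2-Ob kept their ratios under equal medians, loess and spiked controls, since their elicited signals stayed under the floor. The highest floor put H2-Oa at -2.20, H2-Ob at -3.70 and Ciita at -0.94, as their ratios are set by the floor. H2-Aa had no value without probe sets that can cross-hybridise, since all of its own are of that kind. Of the 9, 5 were at least 2-fold lower where genes had to be above the floor on both arrays, which leaves 6 to count, and 5 at 3-fold. The same filter left 6 B cell markers and 0 dendritic cell markers lower. Dendritic cell markers numbered 3 at 3-fold and 3 with the floor at the 99th percentile. Promoter factors at least 2-fold lower numbered 5 on the spiked controls, and 2 with the median of probe sets or without cross-hybridising ones. Antigen processing genes that were lower numbered 2 with quantile, loess or spiked-control scaling and 0 at 3-fold, and genes of Ciita regulation 3 at 3-fold; the cause was not tested where a setting does not itself explain the count. With 1 array per group, no setting shows how these values vary between animals, and signals near the floor give bounds alone.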
